A study of Papio hamadryas with 17 samples.

Results

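Salt transport genes of the thick ascending limb were followed from animal to animal in the kidney cortex of baboons. The 6 genes were UMOD, SLC12A1, KCNJ1, BSND, CASR and PTGER3, taken by name from the deposited transcript tables, and they had 17 transcripts (6 each of SLC12A1 and KCNJ1, 2 of UMOD and 1 each of the others). These are 6 of 9818 genes, and 17 of 17119 transcripts, found in both the table of females and the table of males. RNA had been sequenced from stranded mRNA libraries of 1 ultrasound-guided cortex biopsy per animal, from 8 females aged 15 to 19 and 9 males aged 6 to 13, with age given without a unit and taken as years. Each animal was untreated and had eaten a low salt chow for life before the study. Levels are reported for 14 animals, 6 females aged 15 to 19 and 8 males aged 6 to 13. Female 1, female 2 and male 6 were left out by the rule that defined the gene set.

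The thick ascending limb is the last part of the loop of Henle and leads into the distal tubule. It reabsorbs salt without water, which dilutes the urine and lets the medulla become concentrated. Sodium, potassium and chloride enter its cells together from the urine side, potassium leaks back through an apical channel, and chloride leaves through basolateral channels. The resulting voltage drives calcium and magnesium between the cells, and hormones and local mediators, among them vasopressin, calcium and prostaglandins, set the rate. A cortex biopsy samples the cortical stretch of this segment together with glomeruli, proximal tubule and other cells. In such bulk tissue, fewer cells of a type and less RNA per cell cannot be told apart.

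The deposited values are a scaled signal per transcript with a floor of 1. Here 1 was subtracted and a gene's transcripts were summed, and the result is called signal. Whether signal is corrected for transcript length is not given in the sources used here, so levels are not compared between genes. Over the 17119 shared transcripts the summed signal was 259197 to 319420 in the 6 females and 264577 to 440508 in the 8 males, and read totals are unknown. The 3 libraries left out had 54350 to 111200 of signal from skeletal muscle markers, against at most 21.87 in the other 14, over the 2 of 10 markers present in both tables. Kidney markers were present in each of the 14, with a summed signal of thick limb markers (7 of 8 in both tables, UMOD, SLC12A1 and KCNJ1 among them) of 1890 to 11790 in females and 2921 to 10440 in males. Sex coincided with age and with the series of library names, 1 for females and 2 for males (series A with 5 and series B with 3 of the 8 males), and these cannot be told apart. Replicate numbers below only name animals.

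UMOD encodes uromodulin, the protein that the thick limb sheds into urine. The gene (gene31605) lies at NC_018171.2, 18571499 to 18591621, on the minus strand in the deposited coordinates. Its signal in females was lowest at 1669 in female 6, had a median of 5730 and was highest at 11030 in female 3. In males it was lowest at 2640 in male 4, had a median of 5248 and was highest at 9625 in male 1. The sexes overlapped over most of their range, and the highest and lowest animals were both female. The means were 5891 ± 3334 (SD, n = 6) and 5506 ± 2165 (SD, n = 8).

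SLC12A1 encodes the apical sodium-potassium-chloride cotransporter, the target of loop diuretics. It lies at NC_018158.2, 22574993 to 22676154, on the plus strand (gene12925). Its signal was 83.7 at the lowest, 135.7 at the median and 276.1 at the highest in females. In males these were 91.5, 215 and 345.9. Female 6 and male 4, the animals lowest for UMOD in their sex, were lowest here too, and female 3 and male 1 were again highest.

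KCNJ1 encodes the apical potassium channel ROMK, which returns potassium to the lumen for the cotransporter. It lies at NC_018165.2, 118450389 to 118518945, on the minus strand (gene25191). Its signal was 45.2 at the lowest, 84.4 at the median and 171.5 at the highest in females, and 66.7, 113.5 and 190.5 in males. The extremes were female 6 and female 3 among females and male 2 and male 1 among males, and the sexes overlapped.

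BSND encodes barttin, the subunit that the basolateral chloride channels of the segment need to reach the membrane. It lies at NC_018152.2, 53370449 to 53382633, on the plus strand (gene1037). Its signal was 1.27, 4.41 and 7.20 (lowest, median, highest) in females and 3.51, 5.81 and 11.4 in males. Male 4, lowest of the males for UMOD and SLC12A1, was highest for BSND.

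CASR encodes the calcium-sensing receptor, which lowers salt and calcium reabsorption in the segment when blood calcium is high. It lies at NC_018153.2, 41886040 to 41917267, on the plus strand (gene3650). Its signal was 21.9, 27.0 and 43.3 (lowest, median, highest) in females and 25.2, 36.9 and 44.3 in males. PTGER3 encodes EP3, a prostaglandin E receptor that lowers cAMP. It lies at NC_018152.2, 69249217 to 69332002, on the minus strand (gene1171). Its signal was 3.82, 15.1 and 72.4 in females and 15.6, 26.0 and 54.9 in males. Female 3 was the highest female for all 6 genes, and male 1 was the highest male for all but BSND.

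**Figure D1:**
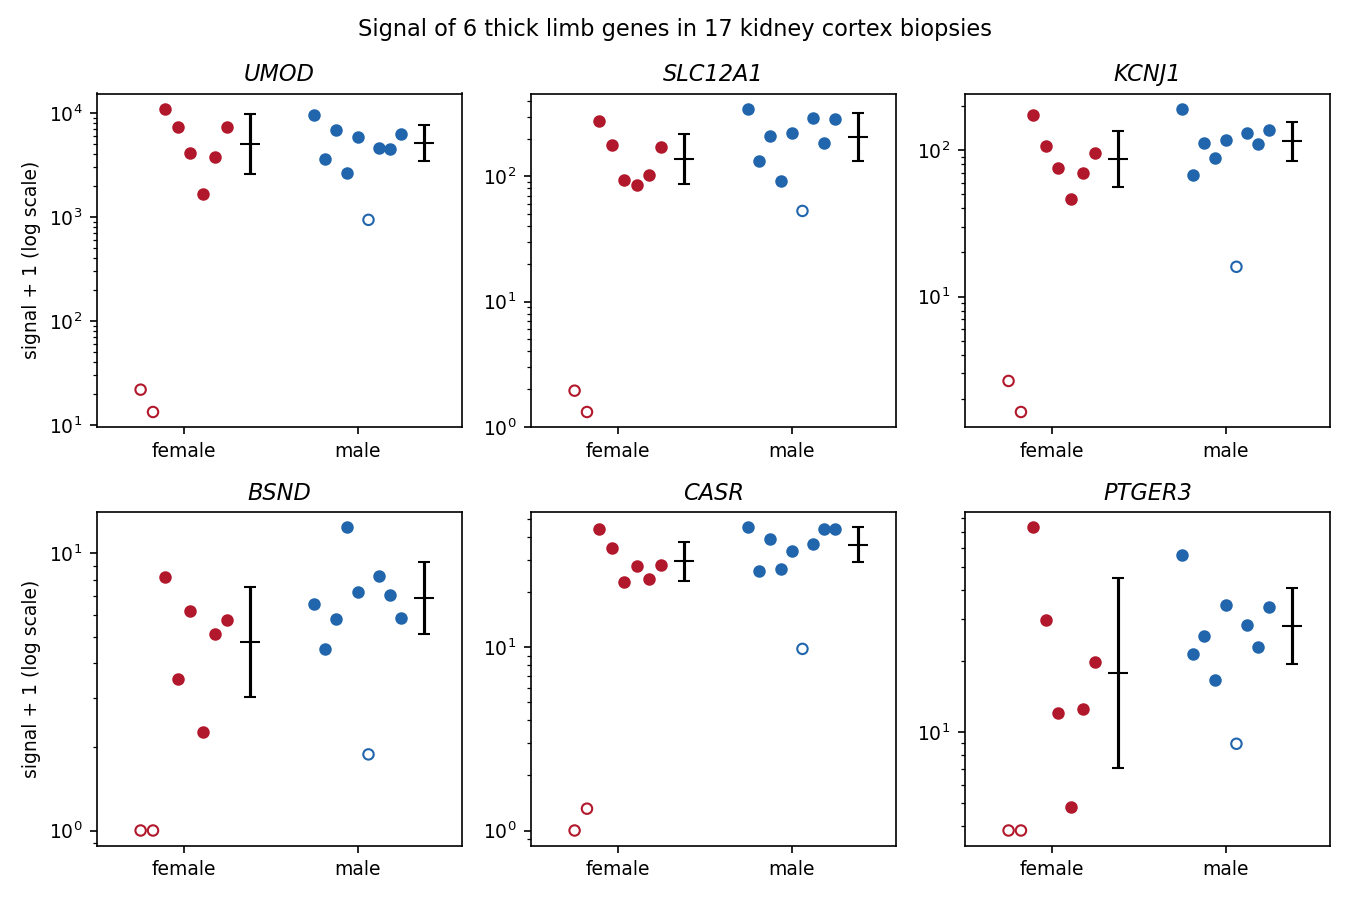
Signal plus 1 of each of the 6 genes (log axis) in every biopsy, females in red and males in blue, with the mean and SD of log2(signal + 1) over the 14 animals beside each sex. Open circles are the 3 libraries left out, which lie below the other animals of their sex for all 6 genes, and filled circles of the sexes overlap in each panel.

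The genes differed in how widely they ranged. PTGER3 spanned 19-fold over the 14 animals, BSND 8.95-fold, UMOD 6.61-fold, KCNJ1 4.22-fold, SLC12A1 4.13-fold and CASR 2.03-fold. BSND signal lay near the floor, and as signal plus 1 it spanned 5.45-fold, below the 6.61-fold of UMOD. On the log2(signal + 1) scale the SD within sex was 0.95 for PTGER3 and 0.76 for UMOD, above 96.7% and 91.8% of the genes tested. It was 0.65 for SLC12A1, 0.54 for both KCNJ1 and BSND, and 0.34 for CASR, against a median of 0.38 over all genes. CASR was the 1 gene of the 6 whose spread lay below that median.

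In the 3 libraries left out, UMOD was down to 20.8 (female 1), 12.3 (female 2) and 938.6 (male 6). SLC12A1 was at 0.947, 0.316 and 51.9 in the same order, and KCNJ1 at 1.66, 0.631 and 15.0. BSND was at 0 in both females and 0.881 in male 6. CASR was at 0, 0.316 and 8.81, and PTGER3 at 2.84, 2.84 and 7.92. Each of these values lay below the lowest of the 14 animals of its sex.

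The first comparison asked whether the 6 genes differed between females and males. None of the 6 passed the test, although 38.3% of the 9532 genes tested did (3649 genes). Throughout, all genes means the genes tested among those in both tables. The male table was held in part and sorted by module, so these are not a random sample of genes, and shares or medians over them may differ from those of the full tables. Genes called lower in females made up 36.1% (3437) and genes called higher 2.22% (212). The log2 difference, female minus male, was -0.57 for SLC12A1 (SE 0.32, 95% interval -1.24 to 0.10) and -0.53 for BSND (SE 0.27, -1.11 to 0.04). It was -0.66 for PTGER3 (SE 0.45, -1.61 to 0.29), -0.40 for KCNJ1 (SE 0.26, -0.96 to 0.15) and -0.30 for CASR (SE 0.18, -0.68 to 0.07). For UMOD it was -0.04 (SE 0.42, -0.93 to 0.85). Adjusted p by limma with Benjamini-Hochberg adjustment over all genes ran from 0.132 for BSND to 0.954 for UMOD, and the lowest unadjusted p was 0.0659, also for BSND. The interval of each of the 6 genes reached -0.68 or lower, so a similar level in both sexes is not shown.

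The median log2 difference of all genes was -0.35, and set against it the 6 genes lay between -0.31 (PTGER3) and 0.31 (UMOD). When each library was scaled to its median gene, UMOD was at 0.34, CASR at 0.07, KCNJ1 at -0.03, BSND at -0.16, SLC12A1 at -0.20 and PTGER3 at -0.29, again with none of the 6 called. The scaling shifted all genes alike, so the sign of UMOD and CASR changed with that shift while their place relative to the median of all genes did not. The split over all genes moved under this scaling to 1274 genes higher (13.4%) and 1516 lower (15.9%) in females, 29.3% in all. Whether the deposited values of the sexes had been scaled together is not given in the sources used here.

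**Figure D2:**
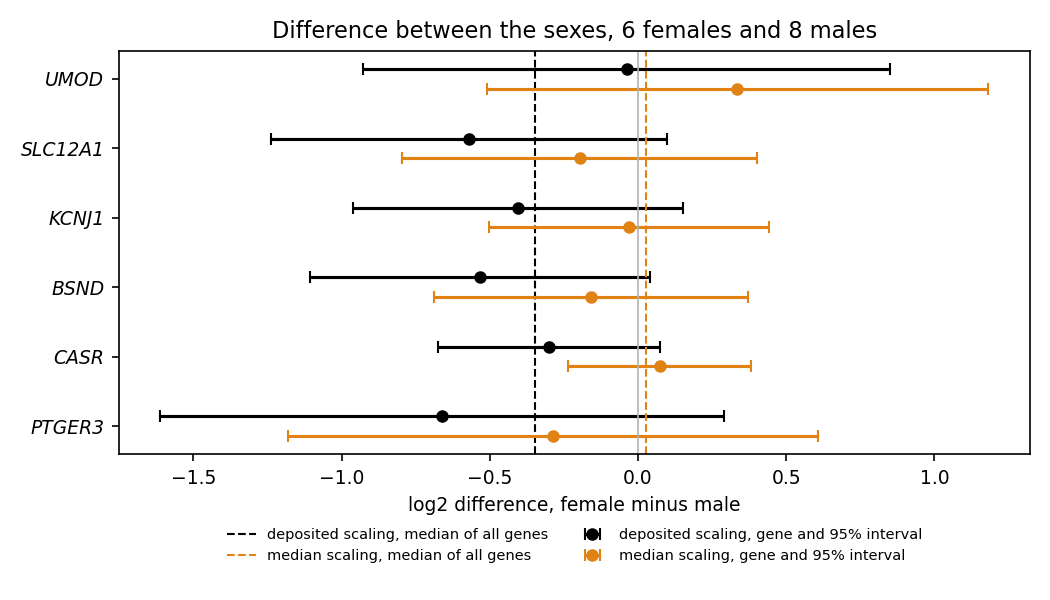
Log2 difference in signal plus 1, female minus male, for the 6 genes with 95% intervals from limma (6 females, 8 males), as deposited in black and after median scaling in orange. Dashed lines mark the median of all genes, -0.35 and 0.03, and each interval covers 0.

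These counts depended on 1 female. Without female 3, the highest female for each gene, 4 of the 6 passed the test: PTGER3 at -1.07 (limma adjusted p = 0.0249), SLC12A1 at -0.77 (0.0464), BSND at -0.69 (0.0468) and KCNJ1 at -0.60 (0.0481). In that fit 41.4% of all genes passed, 39.4% in the same direction. Leaving out any other single animal gave a count of 0. Without female 6, the lowest female for UMOD, the differences were smaller, with PTGER3 at -0.28, BSND at -0.32, KCNJ1 at -0.22 and SLC12A1 at -0.43, and UMOD was at 0.28 (limma adjusted p of 0.315 to 0.603 for these 5). With all 17 libraries the differences ran from -0.89 for BSND to -1.96 for SLC12A1, none of the 6 passed, and 13.3% of all genes did.

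Proximal tubule markers moved with the sexes. All 10 were called lower in females, with a median log2 difference of -2.22, beside 36.1% of all genes called lower. Their summed signal was 219.5 to 3126 in females against 3208 to 7338 in males. Markers of the distal convoluted tubule were called lower in 3 of the 5 tested, with summed signals of 89.1 to 529.7 in females and 291 to 955.3 in males. Of 7 thick limb markers 2 were lower, and of 2 podocyte markers 1 was lower. Of 5 thin limb and inner medulla markers, 2 were called higher and 1 lower. No marker of principal cells, intercalated cells, endothelium, stroma and smooth muscle, immune cells or injury was called. The part of these markers in the differences of the 6 genes was not tested.

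The 2 male name series gave a comparison within 1 sex. Between series A (5 males) and series B (3 males) no gene of 9532 was called by limma, while 691 had an unadjusted p under 0.05. The log2 differences, A minus B, were 0.02 for UMOD, 0.00 for PTGER3, -0.02 for BSND, -0.21 for KCNJ1, -0.32 for CASR and -0.46 for SLC12A1. The median of all genes was -0.17.

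Other genes of thick limb function were taken from lists of 78 genes, of which 59 were tested. Of these, 17 (28.8%) were called lower and 4 (6.78%) higher in females, together 35.6% against 38.3% of all genes, and their median log2 difference of -0.31 was close to the -0.35 of all genes. After median scaling 9 were lower and 10 higher. The 8 with the smallest p were all lower in females under both scalings, and called genes outside these 8 were named after their values were seen.

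Among genes of salt entry and exit, 3 of 7 (42.9%) were called lower and 1 higher, the same counts as after median scaling, beside 36.1% lower over all genes as deposited. KCNJ16, a basolateral potassium channel subunit, averaged 18.8 ± 6.92 for the females (SD, n = 6) and 49.9 ± 17.9 for the males (SD, n = 8), which is -1.36 on the log2 scale (limma adjusted p = 0.000348). SLC9A3, the apical sodium-proton exchanger, fell by 0.99 on the log2 scale in females against males (adjusted p = 0.000975) and ATP1B1, the beta subunit of the sodium pump, by 0.89 (0.00351). KCNJ16 and SLC9A3 are also known from the proximal tubule.

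Among 11 regulators of the cotransporter, 4 (36.4%) were called lower, near the 36.1% of all genes, and 0 higher, and after median scaling 3 were lower and 2 higher. CUL3, the scaffold of a ubiquitin ligase that removes WNK kinases, was at 13.3 ± 2.74 in females and 31.4 ± 7.25 in males, a log2 difference of -1.18 (limma adjusted p = 0.000138). CAB39, a partner of the SPAK and OSR kinases, differed by -0.81 (0.00110) and SCAMP2 by -0.48 (0.0411), and the call for SCAMP2 was lost after median scaling (-0.11, adjusted p = 0.577).

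Of 14 hormone and cAMP signalling genes, 6 (42.9%) were called lower and 1 higher, and after median scaling 1 was lower and 3 were higher. GNAI3, an inhibitory G protein subunit of the kind that EP3 couples to, was at 7.49 ± 1.94 in females and 17.3 ± 2.74 in males, a log2 difference of -1.13 (limma adjusted p = 0.000138), and the sexes did not overlap. The others called lower were PTH1R (-0.98), GNA11 (-0.87), PTGER2 (-0.75), PTGER4 (-0.63) and GNAQ (-0.49), and none of these 5 was called after median scaling. GCGR, the glucagon receptor, was higher at 0.94 (0.0239).

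The paracellular genes, which form the cation path between the cells, had 2 of 6 (33.3%) called lower and 1 higher, and after median scaling 1 lower and 2 higher. CLDN16, the claudin of magnesium and calcium transport, was at 10.6 ± 5.37 in females and 24.0 ± 7.26 in males, a log2 difference of -1.21 (limma adjusted p = 0.00373). CLDN10 differed by -0.66 (0.0158), a call lost after median scaling (-0.29, adjusted p = 0.187), and CLDN3 by 0.67 (0.0267). Among 17 identity genes and regulators, 1 was called lower and 1 higher. The latter was WFDC2 at 0.57 (limma adjusted p = 0.0351), and EGF, IRX1 and KNG1 were at -0.12, 0.06 and 0.01 (adjusted p of 0.809 to 0.983). Of 3 proteins that handle uromodulin, PRSS8 was lower at -0.43 (0.0316), again not after median scaling (-0.05, adjusted p = 0.759), while hepsin (HPN), the protease that releases it, was at -0.36 (0.0537).

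The second question was whether the genes moved with UMOD from animal to animal. Over the 14 animals the signals of PTGER3, KCNJ1 and SLC12A1 were high where UMOD was high. Pearson's r on log2(signal + 1) was 0.883 for PTGER3 (permutation p = 5e-05, adjusted over 9531 genes 0.0265) and 0.852 for KCNJ1 (p = 0.00017, adjusted 0.0399). For SLC12A1 it was 0.802 (permutation p = 0.00043, adjusted 0.0539) and for CASR 0.633 (p = 0.0143, adjusted 0.205). BSND did not move with UMOD beyond the spread, with r = 0.292 (permutation p = 0.306). So 2 of the 5 passed, as did 0.724% of all genes in the same direction (69 genes), and the median r of all genes was 0.177. With all 17 libraries 5 of 5 passed, as did 26.6% of all genes. Spearman's rho was 0.798 for PTGER3 (permutation p = 0.00095), 0.785 for KCNJ1 (p = 0.00149), 0.732 for SLC12A1 (p = 0.00405), 0.684 for CASR (p = 0.00887) and 0.143 for BSND, and none of these passed after adjustment.

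With each sex centred on its own mean, r was 0.932 for PTGER3 (adjusted permutation p = 0.0181), 0.908 for KCNJ1 (0.0347), 0.874 for SLC12A1 (0.0354), 0.690 for CASR (0.151) and 0.317 for BSND (0.575). Then 3 of the 5 passed, against 0.462% of all genes. Within the 6 females r was 0.960 for PTGER3, 0.967 for KCNJ1, 0.916 for SLC12A1, 0.650 for CASR and 0.739 for BSND, with exact permutation p of 0.00833, 0.00694, 0.0208, 0.168 and 0.0847. Within the 8 males it was 0.908, 0.811, 0.871, 0.774 and -0.454 in the same order, with exact permutation p of 0.00313, 0.0178, 0.00484, 0.0243 and 0.252. PTGER3, KCNJ1, SLC12A1 and CASR kept a positive r in both sexes, and BSND did not. The median r of all genes was 0.370 in females and 0.070 in males. Unadjusted permutation p was under 0.05 for 1842 of 9531 genes in females and 595 in males, and no gene passed the adjustment in either sex. The smallest exact permutation p was 0.00139 with 6 females and 2.48e-05 with 8 males. At these limits a single gene cannot pass over 9531 genes whatever its r, so the adjustment within a sex cannot decide. In females CASR and BSND lay at the 68.5 and 76.3 percentiles of r over all genes. No value is given within series A (5 males) or series B (3 males), since correlations were taken over 6 or more animals only.

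The animals farthest from the median of UMOD were female 3 and female 6. Without them r was 0.720 for PTGER3 (permutation p = 0.00911), 0.701 for KCNJ1 (p = 0.0115), 0.745 for SLC12A1 (p = 0.00661), 0.609 for CASR (p = 0.0371) and -0.435 for BSND (p = 0.157). No gene of the 9531 then passed the adjustment and 568 had an unadjusted p under 0.05, over a narrower range of UMOD. The adjusted calls for PTGER3 and KCNJ1 were thus made only with those females, while their r stayed above 98.9% and 98.6% of the genes without them.

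**Figure D3:**
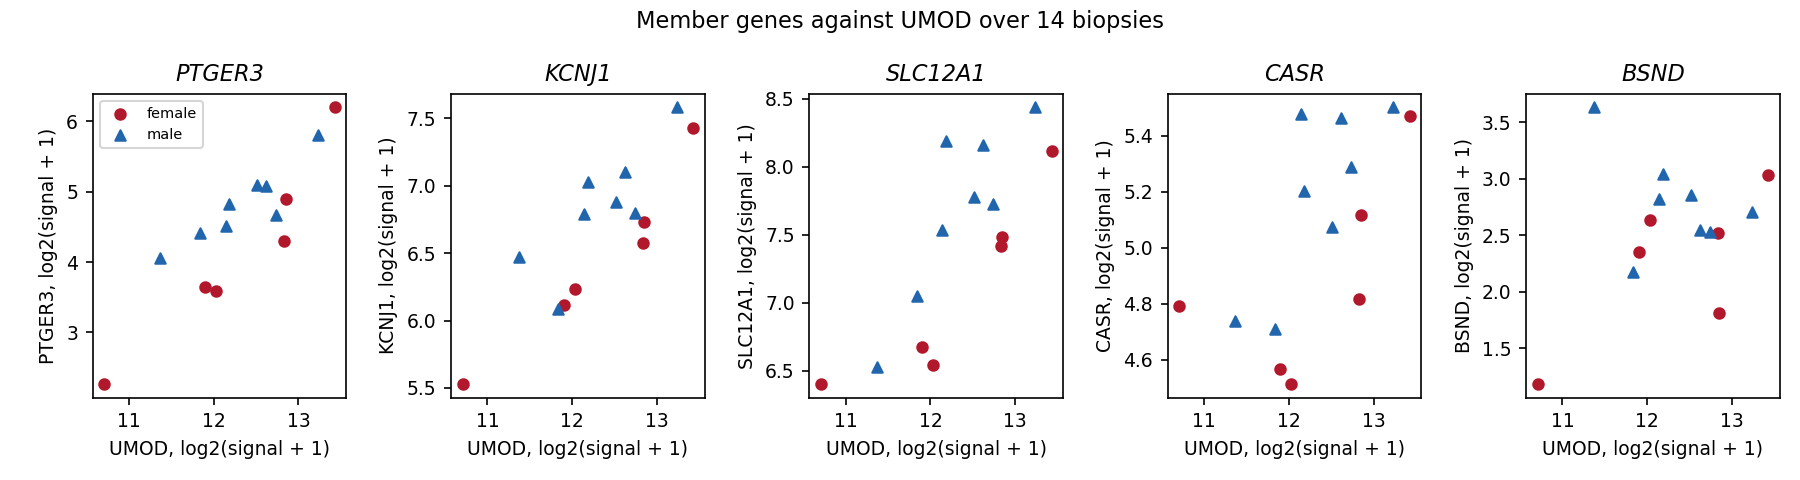
Log2(signal + 1) of the other 5 genes against that of UMOD, 1 point per animal, 6 females as circles and 8 males as triangles. PTGER3, KCNJ1 and SLC12A1 climb with UMOD in both sexes (r of 0.811 to 0.967 within a sex), and BSND does not in males (r = -0.454).

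The ratio to UMOD was steadier than the genes themselves for PTGER3, KCNJ1 and SLC12A1. Its SD within sex on the log2 scale was 0.37 for PTGER3, 0.36 for KCNJ1 and 0.37 for SLC12A1, 0.58 for CASR and 0.78 for BSND, and the median over all genes was 0.78. Among the members without UMOD, r centred within sex was 0.931 for KCNJ1 with PTGER3, 0.897 for SLC12A1 with KCNJ1, 0.853 for SLC12A1 with PTGER3 and 0.843 for SLC12A1 with CASR. The pairs of BSND with the other 4 had r of 0.0308 (CASR) to 0.474 (KCNJ1). All pairs share the same libraries and scaling, and these values are a description.

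The wider thick limb lists gave a median r with UMOD of 0.323, or 0.515 centred within sex, against 0.177 and 0.219 over all genes. Of the 59, 7 passed over all genes: IRX1 (r = 0.933) and IRX2 (0.866), transcription factors of the segment, KNG1 (0.897), the kininogen, CLDN19 (0.860), the claudin that pairs with CLDN16, EGF (0.851), CAB39L (0.848) and SORL1 (0.843). The lowest and highest adjusted permutation p of these 7 were 0.0159 and 0.0446, and they were named after their values were seen. Centred within sex, 6 passed, with CLDN16 (0.955) and CLDN10 (0.887) in place of CLDN19, EGF and SORL1.

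Markers of other cells were set against UMOD in the same way, and none of them passed when centred within sex. Centred within sex, all 10 proximal tubule markers had a negative r with UMOD, from -0.736 to -0.497 (median -0.637). The median r was 0.659 for 6 principal cell markers and 0.701 for 5 markers of stroma and smooth muscle, of which COL1A2 passed before centring (r = 0.855, adjusted permutation p = 0.0424). It was 0.275 for intercalated cell, -0.068 for distal convoluted tubule and -0.290 for endothelium markers. In other lists it was 0.288 (thin limb and inner medulla), 0.190 (immune), -0.317 (injury) and -0.398 (podocyte). CKM, the 1 skeletal muscle marker tested, had r = 0.747 centred within sex (permutation p = 0.0114, adjusted 0.154). PAPPA2, the 1 macula densa marker tested, had r = -0.563. The part of these cells in the correlations of the 6 genes was not tested.

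**Figure D4:**
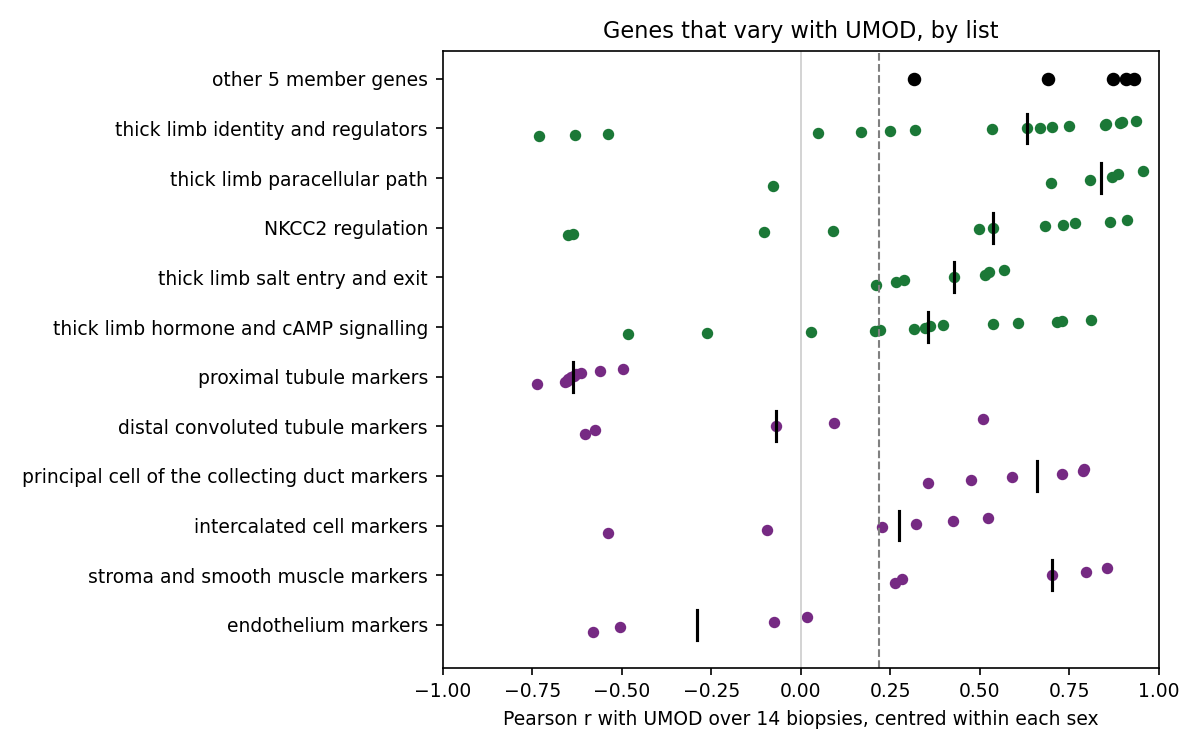
Pearson's r with UMOD over 14 animals, centred within each sex, with 1 point per gene and the list median as a bar, for the other 5 members (black), thick limb lists (green) and markers of other cells (purple). The dashed line is the median of all genes, 0.219, and the 10 proximal tubule markers lie between -0.736 and -0.497.

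Ranked over 4943 genes with a mean log2(signal + 1) of at least 3, the genes most like UMOD after centring within sex were FBLN1 (r = 0.956), CLDN16 (0.955), ITM2A (0.952), CCDC8 (0.937) and LOC101001096 (0.936). Within females and within males their r was 0.840 to 0.989. Those most like SLC12A1 were EGF (0.961), CLDN10 (0.949), KNG1 (0.919), KCTD9 (0.906) and ANK2 (0.904), with 0.871 to 0.989 within a sex. FBLN1 encodes fibulin 1, a protein of the extracellular matrix, and ANK2 encodes an ankyrin. The measure of likeness was taken over 14 animals. The r within a sex came from these same animals and is no separate support.

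The third comparison took each transcript's share of its gene's signal. SLC12A1 had 6 annotated variants, and X5, the variant whose start at 22596058 lies 21065 bases downstream of the first, took most of the signal in all but male 7 and male 9. Its share of SLC12A1 signal was lowest at 77.9%, had a median of 86.3% and was highest at 97.2% in females. In males it was lowest at 9.95% in male 7, had a median of 69.1% and was highest at 76.4%. Each female lay above each male. The means were 87.1% ± 6.56 (SD, n = 6) and 60.1% ± 22.2 (SD, n = 8), a difference of 27.0 points (exact permutation p = 0.00266, 2-sided, over 3003 groupings), and without male 7 the difference was 19.9 points (exact permutation p = 0.000583).

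Of the SLC12A1 variants that start upstream, X1 made up 4.67% ± 2.94 (SD, n = 6) of the signal in females and 20.6% ± 15.6 (SD, n = 8) in males (exact permutation p = 0.00566). X3 made up 2.98% ± 1.35 and 8.94% ± 3.38 (exact permutation p = 0.00167). Neither overlapped between the sexes. X2 was at 1.41% and 4.61% (exact permutation p = 0.0113), X6 at 3.03% and 5.14% (p = 0.136) and X4 at 0.819% and 0.672% (p = 0.645). X3 and X6 held identical values in 2 of the 14 libraries, female 5 and female 6, where how signal was split between them is uncertain.

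Over the 7244 transcripts of 2413 genes with several transcripts, 4.20% passed the same test after adjustment and 1.64% did not overlap between the sexes. At that adjustment SLC12A1 X3 passed (0.0445), and X5 (0.0547), X1 (0.0798) and X2 (0.116) did not. Against male series A the X5 difference was 17.5 points (exact permutation p = 0.00433), and against series B 43.0 points (exact permutation p = 0.0119, the smallest that 3 against 6 can give). Shares within 1 gene sum to a fixed total, so its variants are not independent.

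**Figure D5:**
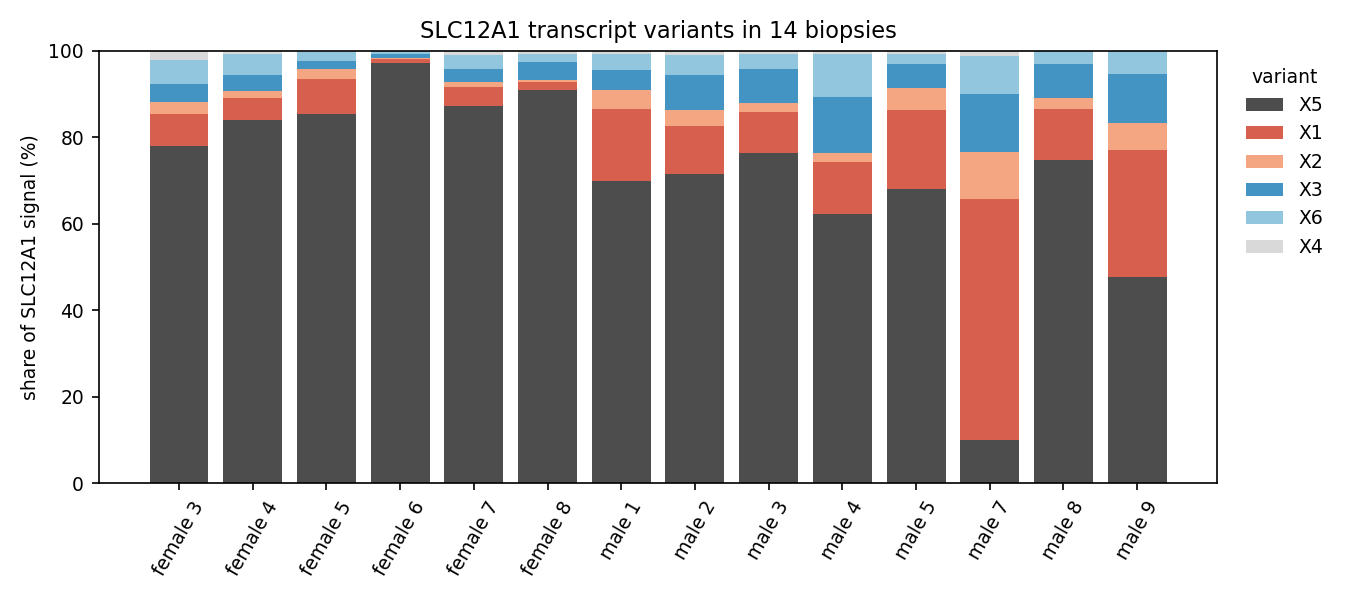
Share of SLC12A1 signal (%) by annotated transcript variant in each of the 14 animals. X5 (dark grey) makes up 77.9% to 97.2% in females and 9.95% to 76.4% in males, with male 7 the lowest, where X1 (red) makes up 55.9%.

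Variants that start farther downstream took larger shares in females in many genes. Among 933 genes whose variant starts lay more than 1000 bases apart, the share of the most downstream variant was higher in females in 591 (63.3%), with a median difference of 2.26 points. The 27.0 points of SLC12A1 exceeded 95.8% of these genes. In 25 of them (2.68%) each female lay above each male. RNA quality was not analysed here, and its part in the shares was not tested.

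UMOD had 2 variants whose starts lie 162 bases apart. X1 held 53.1% ± 4.82 (SD, n = 6; 45.1% to 58.6%) of the signal in females and 60.8% ± 3.99 (SD, n = 8; 55.5% to 66.2%) in males. The difference was -7.71 points (exact permutation p = 0.00699, adjusted over all transcripts 0.0866), and the sexes overlapped.

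KCNJ1 variants were examined after the others had been seen. X5 made up 7.54% of KCNJ1 signal in females (3.64% to 12.6%) and 21.8% in males (14.5% to 26.4%), with no overlap (exact permutation p = 0.000333, the smallest possible, adjusted over all transcripts 0.0350). X7, which shares its start with X5, was at 5.27% and 12.0% (exact permutation p = 0.0020, adjusted 0.0476). X2 starts 42244 bases downstream of the first KCNJ1 start, and X5 38541 bases. X2 made up 40.0% and 14.6% (exact permutation p = 0.0133, adjusted 0.127), with 51.7% in male 2. X4, the most downstream, was at 11.6% and 5.67% (adjusted exact permutation p = 0.102), and X3 at 33.5% and 44.0% (0.553).

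The authors' deposited table of females put 14 of the 17 member transcripts in 1 co-expression module, tan, which held 12.22% of its transcripts. The other 3 in the authors' deposited table were CASR and KCNJ1 X2 in grey60 and KCNJ1 X1 in darkorange. In the authors' deposited table of males, as far as it was held here, the 17 transcripts lay in 5 modules. Purple held 7 of them in the authors' deposited table of males, and 12.39% of all its transcripts held here. Among the 7 were both UMOD transcripts, SLC12A1 X5, CASR and PTGER3, and BSND was alone in black. The authors' deposited tables cover all 8 females and 9 males, with the 3 left-out libraries among them, where all 6 genes were low.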

How the data were processed

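RNA of 17 kidney cortex biopsies was measured by stranded mRNA sequencing. Females and males have separate tables, which hold the deposited signal of each transcript by library (lowest value 1) and a co-expression module colour, per the file headers. Partek is named, per the submitters' processing notes, and the aligner, quantifier, scaling and build were not given in the sources used here. The male table was held in part (17119 complete transcripts, sorted by module). Each matched 1 of the 26644 female transcripts by identifier and coordinates, and 9525 female transcripts were not used here. No transcript (0 of 17119) had a mean deposited value under 2 over all 17 libraries, and 678 lay from 2 to 2.1. Over the females alone the means went down to 1.01. Both tables were therefore treated as parts of 1 jointly filtered table. This floor does not show that females and males were scaled together, which the differences as deposited assume.

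Here 1 was subtracted and transcripts were summed per gene. Genes that reached a signal of 1 in 6 or more libraries were tested with limma 3.58.1 in R 4.3.3 (trend on) after log2(signal + 1), which understates the change of low genes. Benjamini-Hochberg adjusted p under 0.05 was the threshold. Correlations used 100000 permutations of the libraries of each setting. Where values were centred within sex, the permutations were made within each sex. Correlations within 1 sex used exact enumeration, and shares used exact permutation tests, 2-sided (Python 3.11.15, numpy 2.4.6, scipy 1.17.1). Scripts were tested on simulated data. A planned adjustment of the share tests over SLC12A1 and UMOD alone is replaced in the report by that over all transcripts. Named genes were the 6 members, the 8 pathway genes of smallest p between sexes, and the 5 genes most correlated with UMOD and with SLC12A1, of which some are not reported here. The members, lists and left-out libraries were chosen with earlier results of these data known. No sequence is shown because no reference was used here.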

Additional observations from a re-analysis of the deposited data

Results flagged for a closer look

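The lowest or highest animal of a sex was compared with the rest of its sex for 38 sets of values, log2(signal + 1) of the 6 genes and the shares of the variants of SLC12A1, UMOD and KCNJ1. In 7 of them 1 animal stood apart from the others by Dixon's criterion, which chance alone meets in about 5% of sets. All 7 were shares of variants, which are not independent within a gene. No gene's log2 signal stood apart in either sex. Of the 12 sets of signal taken without logs, 2 did, both of PTGER3: female 3 at 72.38, with the next female at 28.79, and male 1 at 54.91, with the next male at 33.25.

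Male 7 stood apart for SLC12A1. Its X5 share was 9.948%, against 47.61% in the next lowest male. Its X1 share was 55.89%, with the next male at 29.51%, and its X2 share was 10.66%, with the next at 6.089%. Its total SLC12A1 signal, 292, lay within the range of the other males.

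Male 2 stood apart for KCNJ1. Its X2 share was 51.66%, with the next male at 14.01%, and its X3 share was 10.34%, with the next lowest at 42.44%. Male 9 had a KCNJ1 X7 share of 19.97%, with the next male at 13.25%. Female 4 had a KCNJ1 X1 share of 8.119%, with the next female at 1.404%.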

How the results depend on the processing

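No paired analysis was possible because the labels give no replicate numbers and each animal gave 1 library. The count of the 6 genes called between the sexes was 0 in the fit reported and under every other setting run, except that it ranged from 0 to 4 when 1 animal was left out. The count over all genes, 3649 as reported, was 1277 with all 17 libraries (458 with median scaling as well), 2226 when the minimum signal was 10, where BSND was not tested, and 1 with age as a term. Against male series A alone it was 1914 (1039 with median scaling), against series B with median scaling 1576, and with 1 animal left out 3095 to 4023. The thick limb count, 21 as reported, was 1 with all 17 libraries under either scaling, 0 with age as a term, 11 against series A (9 with median scaling), 10 against series B with median scaling and 17 to 24 with 1 animal left out.

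Median and upper quartile scaling shift all genes alike, and the sign changes under them come with that shift. The log2 difference of UMOD was 0.34 with median scaling, 0.38 with upper quartile scaling, 0.27 and 0.44 against series A and B with median scaling, and ranged from -0.27 to 0.28 with 1 animal left out. That of CASR was 0.073 with median scaling, 0.12 with upper quartile scaling and 0.13 against series A with median scaling, and that of KCNJ1 was 0.019 with upper quartile scaling. Between the male series, BSND was at 0.15 with median scaling, PTGER3 at -0.0032 with a pseudocount of 0.1, and with 1 male left out UMOD ranged from -0.20 to 0.27, BSND from -0.24 to 0.13 and PTGER3 from -0.25 to 0.19. Of the 5 correlations with UMOD, 2 were called as reported, 5 with all 17 libraries, and 0 by Spearman, within females, within males, by Spearman within either sex, and without female 3 and female 6. Within 1 sex the smallest possible permutation p is too large for a single gene to pass, so those counts decide nothing. The r of BSND was -0.454 in males (rho -0.357) and -0.435 without those females. Of the SLC12A1 shares, those of X1 (-15.9 points), X2 (-3.20) and X5 (27.0) passed when adjusted over 7 tests of both genes but not over all transcripts, as did UMOD X1 (-7.71). X6 passed over the 7 tests with all 17 libraries (-2.65), and UMOD X1 did not against series B (-6.35). The causes were not tested. Spearman, median scaling combined with another choice, the adjustment over all transcripts and the omission of male 7 were chosen after the data were seen. Depth per library is unknown and its effect on low signals such as that of BSND was not tested.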
